A study of Mus musculus with 2 samples.

Results

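The 6 genes *Mcm2*, *Mcm3*, *Mcm4*, *Mcm5*, *Mcm6* and *Mcm7* encode the subunits of the MCM2-7 complex, and they are described here in single cells of mouse *MLL-AF9* leukemia. They were chosen by symbol and not by a cut on a measured value, though earlier results of these data were known. Each symbol named 1 row of the 27998 genes counted. Their transcripts were followed in cells with 500 or more detected genes, 3866 cells of the WT-labelled library and 3545 cells of the KO-labelled library, out of 8309 cells in all. The questions were in which cell cycle class the subunit genes were detected, whether the 6 kept the same balance, and whether either differed between the libraries.

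MCM2-7 is a ring of 6 related ATPases that is loaded onto replication origins as an inactive double ring, a step called licensing, and later becomes the motor of the replicative helicase. Loading needs the origin recognition complex with Cdc6 and Cdt1, and it is restrained by geminin. Activation needs the kinase Cdc7 with its partner Dbf4, together with Cdc45 and the GINS complex. The subunit genes are classical targets of the E2F transcription factors, whose activity peaks as cells pass from G1 into S phase, and MCM proteins are widely used as markers of cells that can proliferate.

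The study examined how transcription changes when the histone acetyltransferase gene *Kat2a* is lost in *MLL-AF9* leukemia, a model driven by retroviral expression of a fusion oncogene together with a YFP reporter. All donor mice were *Kat2a* Flox/Flox on a C57Bl/6 background and all received pIpC, an inducer of the interferon response that switches on the *Mx1-Cre* transgene where it is present. Donors without the transgene gave the WT leukemias and *Mx1-Cre* +/- donors gave the KO leukemias. Marrow was taken 4 to 6 weeks after pIpC, transformed and passed into lethally irradiated recipients, so the leukemias grew in hosts that can keep blood cells of their own. Terminal leukemias were pooled within a genotype, 5 for WT and 4 for KO, and live YFP-positive singlets were then captured for 10x Genomics 3′ sequencing, with 6000 cells sought per library. *Mx1-Cre* is induced in many cell types and is not restricted to blood cells.

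Each genotype was 1 library, so the genotypes could not be tested against each other. All intervals given are exact 95% intervals, Poisson for sums of UMIs (unique molecular identifiers, read here as captured transcripts), Clopper-Pearson for shares and for the share behind a ratio, and they cover counting error only. The last digit of each barcode gave the library, following the code published with the study. The targeted gene went against the labels. *Kat2a* had 142 UMIs (12.2 CPM, UMIs per 1000000 UMIs of the library) in the WT-labelled library and 759 UMIs (95.8 CPM) in the KO-labelled library, a log2 ratio of 2.98 (2.72 to 3.25). Because the 3′ end of the transcript remains after excision, these reads need not show a loss, but every direction below rests on the assignment of the libraries. The study followed excision by qPCR with an amplicon inside the excised region, which these files do not measure. The kept cells held 11669427 UMIs in the WT-labelled library and 7920256 in the KO-labelled library, with medians of 2588.5 and 1884 UMIs per cell. In all, 28 barcode sequences occurred in both libraries, 19 of them among kept cells. Secondary-granule and primary-granule markers of the myeloid line, such as *Camp* and *Mpo*, were present in both libraries with no listed gene at 0, which matches the labelled tissue, and all 4 T cell markers together stayed at 1.46 and 1.52 CPM.

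Positions are those of GENCODE M21 (GRCm38), and the Ensembl identifiers of all 6 genes matched those in the files. *Mcm2* (ENSMUSG00000002870) lies on chromosome 6 from 88883474 to 88898780, on the minus strand, in 16 exons. *Mcm3* (ENSMUSG00000041859) lies on chromosome 1 from 20802968 to 20820312, minus strand, in 17 exons. *Mcm4* (ENSMUSG00000022673) lies on chromosome 16 from 15623897 to 15637400, minus strand, in 16 exons, and its start is 465 bases from that of *Prkdc*, which is transcribed the other way. *Mcm5* (ENSMUSG00000005410) lies on chromosome 8 from 75109569 to 75128439, plus strand, in 17 exons. *Mcm6* (ENSMUSG00000026355) lies on chromosome 1 from 128331590 to 128359664, minus strand, in 17 exons. *Mcm7* (ENSMUSG00000029730) lies on chromosome 5 from 138164583 to 138172422, minus strand, in 15 exons.

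*Mcm7* is the member with overlapping neighbours. Its gene body holds the microRNA genes *Mir106b*, *Mir93* and *Mir25* on the same strand, its start overlaps *Ap4m1* on the opposite strand by 421 bases, and its 3′ end overlaps the 3′ end of *Cops6* on the opposite strand by 64 bases. The assay reads 3′ ends, and how strand was used in the counting is not given in the sources used here, so the counts of *Mcm7* are uncertain to that extent. The last exons, from which most 3′ tags come, ran from 338 bases in *Mcm7* to 1217 bases in *Mcm5*.

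RefSeq promoter windows (GRCm38.p6, 250 bases before to 50 bases after an annotated start) were found for 5 of the 6 members, with a second window for *Mcm7*. *Mcm4* had no entry. The windows were searched on both strands for the E2F-type words TTTCGCGC, TTTGGCGC, TTTCCCGC and TTTGCCGC and for CCAAT. The window of each member, for *Mcm7* the one nearer its GENCODE start, is printed from 5′ to 3′ of the gene, with every match in capitals, because transcripts of the 6 genes were most abundant in the same cell class, as given below.

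Mcm2, chr6:88898731-88899030, minus strand: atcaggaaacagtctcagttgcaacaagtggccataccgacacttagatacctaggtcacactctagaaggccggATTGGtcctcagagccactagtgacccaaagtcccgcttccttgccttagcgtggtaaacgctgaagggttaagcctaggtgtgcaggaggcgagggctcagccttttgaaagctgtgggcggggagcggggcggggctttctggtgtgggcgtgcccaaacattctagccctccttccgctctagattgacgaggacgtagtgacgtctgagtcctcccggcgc

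Mcm3, chr1:20820263-20820562, minus strand: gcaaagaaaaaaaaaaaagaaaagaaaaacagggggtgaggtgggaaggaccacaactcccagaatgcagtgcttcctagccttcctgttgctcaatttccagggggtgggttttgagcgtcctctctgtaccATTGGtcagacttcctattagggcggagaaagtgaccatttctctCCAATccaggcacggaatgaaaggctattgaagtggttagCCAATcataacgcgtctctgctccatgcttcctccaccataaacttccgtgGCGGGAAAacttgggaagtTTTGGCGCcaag

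Mcm5, chr8:75109259-75109558, plus strand: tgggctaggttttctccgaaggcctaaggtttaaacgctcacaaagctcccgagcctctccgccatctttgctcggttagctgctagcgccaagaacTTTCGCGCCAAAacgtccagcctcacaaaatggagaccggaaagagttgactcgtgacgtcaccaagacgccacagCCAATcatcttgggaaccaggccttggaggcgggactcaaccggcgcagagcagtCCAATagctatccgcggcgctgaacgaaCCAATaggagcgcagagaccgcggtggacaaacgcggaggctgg

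Mcm6, chr1:128359656-128359955, minus strand: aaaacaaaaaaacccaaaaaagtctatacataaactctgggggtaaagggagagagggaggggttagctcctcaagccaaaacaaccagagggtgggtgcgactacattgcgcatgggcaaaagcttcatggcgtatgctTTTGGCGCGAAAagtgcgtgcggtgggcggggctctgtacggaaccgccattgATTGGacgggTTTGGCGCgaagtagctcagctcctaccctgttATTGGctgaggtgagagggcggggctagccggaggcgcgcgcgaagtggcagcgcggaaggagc

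Mcm7, chr5:138171834-138172133, minus strand: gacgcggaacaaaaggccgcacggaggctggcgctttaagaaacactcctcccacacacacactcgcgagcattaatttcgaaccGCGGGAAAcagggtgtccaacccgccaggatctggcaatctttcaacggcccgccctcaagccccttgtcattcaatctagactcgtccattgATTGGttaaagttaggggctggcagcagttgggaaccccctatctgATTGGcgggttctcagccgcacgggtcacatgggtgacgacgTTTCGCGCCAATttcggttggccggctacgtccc

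An E2F-type word was found in the windows of *Mcm3*, *Mcm5*, *Mcm6* and *Mcm7*, 4 of the 5 members with an entry, whereas 2.60% of the 27025 genes with a window (2.26% of 32851 windows) held any of the 4 words. *Mcm5* and *Mcm6* each carried TTTCGCGC and TTTGGCGC as an overlapping pair on opposite strands, starting 153 bases before the start site in *Mcm5* and 110 bases before it in *Mcm6*, and *Mcm6* had a further TTTGGCGC. In *Mcm7* a TTTCGCGC overlapped a CCAAT after the start site. The window of *Mcm2* held none of the 4 words, and the second window of *Mcm7*, not printed, held none of them and a single CCAAT. The word CCAAT was found in all 6 windows of members but also in 37.4% of all windows. A match is a run of letters and not a site shown to be bound, and a word that is missing from these 300 bases may lie outside them.

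*Mcm6* and *Mcm7* were the most abundant of the 6 in both libraries. *Mcm6* had 1272 UMIs in the WT-labelled library, or 109 CPM (103 to 115), and 942 UMIs in the KO-labelled library, or 119 CPM (111 to 127). *Mcm7* had 1151 UMIs, or 98.6 CPM (93.0 to 105), and 991 UMIs, or 125 CPM (117 to 133). *Mcm6* was thus ahead of *Mcm7* in the WT-labelled library and behind it in the KO-labelled library, with intervals that overlapped in each library.

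The other 4 subunit genes lay lower and close together. *Mcm3* had 834 UMIs, or 71.5 CPM (66.7 to 76.5), in the WT-labelled library and 647 UMIs, or 81.7 CPM (75.5 to 88.2), in the KO-labelled library. *Mcm5* had 788 UMIs, or 67.5 CPM (62.9 to 72.4), and 582 UMIs, or 73.5 CPM (67.6 to 79.7). Neither was separated from the other by its interval in either library. *Mcm2* had 706 UMIs, or 60.5 CPM (56.1 to 65.1), and 606 UMIs, or 76.5 CPM (70.5 to 82.9). *Mcm4* was the lowest in both libraries, with 672 UMIs, or 57.6 CPM (53.3 to 62.1), and 511 UMIs, or 64.5 CPM (59.0 to 70.4). A 3′ assay takes 1 tag per molecule, so these levels were not divided by length, but capture can differ from gene to gene.

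All 6 members were higher in the KO-labelled library, by small factors. The log2 ratio (labelled KO over labelled WT) was 0.34 (0.22 to 0.47) for *Mcm7* and 0.34 (0.18 to 0.50) for *Mcm2*. It was 0.19 (0.04 to 0.34) for *Mcm3*, and the interval of *Mcm6*, at 0.13, began just above 0 (0.00 to 0.25). The intervals of *Mcm4* at 0.16 (-0.00 to 0.33) and *Mcm5* at 0.12 (-0.04 to 0.28) reached below 0. Summed over the 6 genes, 5423 UMIs (465 CPM, 452 to 477) stood against 4279 UMIs (540 CPM, 524 to 557), a log2 ratio of 0.22 (0.16 to 0.28).

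These ratios were read against the 2737 robust genes, those detected in no fewer than 10% of kept cells. The median log2 ratio over robust genes was 0.07, and 60.2% of them were higher in the KO-labelled library. All 6 members lay above that median, at percentiles from 56.4 (*Mcm5*) to 84.4 (*Mcm7*), and would lie below it with the libraries exchanged. No member, 0 of 6, passed 1.5-fold in either direction, where 3.54% of robust genes passed it as higher and 3.43% as lower. This count depended on how the cells' depths were treated. *Mcm2* passed it as higher after thinning to 1000 UMIs (log2 0.66) or 1500 UMIs (0.59), and 4 of 6, *Mcm2*, *Mcm3*, *Mcm5* and *Mcm7*, passed it in cells matched on total UMIs, at log2 0.75, 0.61, 0.63 and 0.80.

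**Figure D1:**
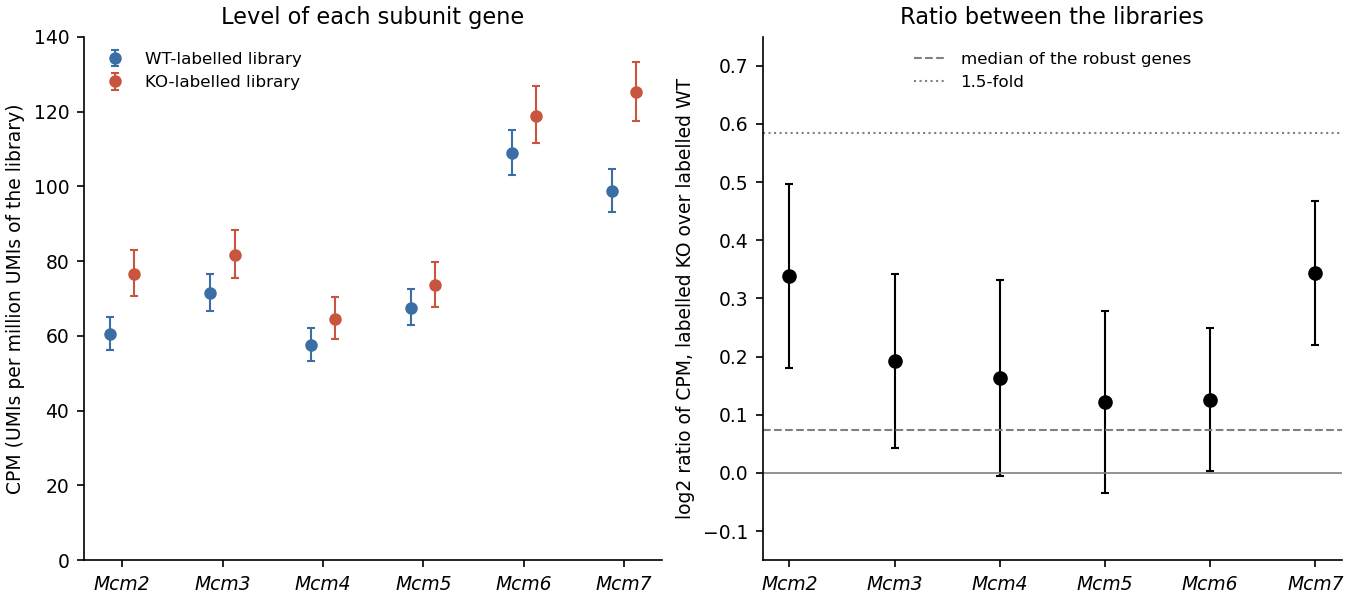
Left, CPM of each subunit gene in the 2 libraries. Right, the log2 ratio of the KO-labelled library over the WT-labelled library; bars are exact 95% counting intervals, the dashed line is the median of robust genes (0.07) and the dotted line is 1.5-fold. All 6 ratios lie above the dashed line and below the dotted one.

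The transcripts were sparse in single cells. *Mcm6*, the most widely detected member in the WT-labelled library, had a UMI in 20.2% of its cells and in 17.3% of cells of the KO-labelled library. *Mcm4* and *Mcm2* were at the low end, with 12.7% and 12.6% of cells in the WT-labelled library and 10.6% and 11.6% in the KO-labelled library. For every member the share of cells was lower in the KO-labelled library although its CPM was higher, and median depth was lower in that library as well, so no order between libraries was read from these shares. A cell with a member mostly held 1 UMI of it, from 57.1% of positive cells for *Mcm6* in the WT-labelled library to 76.9% for *Mcm5* in the KO-labelled library. The highest count in any cell was 12 UMIs, for *Mcm7* in the KO-labelled library.

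For comparisons of cells at equal depth, each cell with at least 1000 UMIs was thinned to 1000 UMIs, which kept 3800 and 3351 cells and left out 66 and 194. Cells were then placed in 3 classes by UMIs of 39 S phase genes and 51 G2M genes that hold none of the 6 members. The members are themselves genes of the G1 to S transition, so a higher level in the S class was largely given by this choice. Levels by class, S score or sector are therefore a description and not a test. A cell was in the S class when its S score was above the mean and not below its G2M score, in the G2M class when its G2M score was above the mean and above its S score, and in the low class otherwise. The S score turned on whole UMIs, since the mean was 2.29, and 901 of 7151 cells (12.6%) had 2 UMIs of the S list, just below the limit, and 513 (7.17%) had 3, just above it. For the G2M list, with a mean of 6.76, 284 cells (3.97%) had 6 UMIs and 259 (3.62%) had 7. The classes are ranges of a score and not cell types.

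Detection of the subunit genes followed the S class in both libraries. In the WT-labelled library the 6 genes together stood at 1056 CPM (985 to 1130) in the S class, 297 (259 to 338) in the G2M class and 163 (146 to 180) in the low class. In the KO-labelled library they stood at 1029 (965 to 1097), 332 (295 to 372) and 211 (188 to 235). The S class was above the low class by 2.70 on the log2 scale (2.52 to 2.88) in the WT-labelled library and by 2.29 (2.11 to 2.47) in the KO-labelled library. It held 20.8% of cells but 58.5% of all MCM UMIs in the WT-labelled library, and 27.7% of cells with 60.7% of the UMIs in the KO-labelled library.

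At least 1 MCM UMI was found in 59.1% of S class cells of the WT-labelled library (55.5 to 62.5%) and in 56.9% of those in the other library (53.6 to 60.1%). In the G2M class the shares were 23.0% and 25.2%, and in the low class 12.5% and 16.5%. For comparison, cluster 6, led by the late granulocyte genes *Ltf* and *Mmp9*, had an MCM UMI in 7.36% and 7.39% of thinned cells. Its median depths were 1807 and 1446 UMIs before thinning, and 3.90% and 6.82% of its cells were in the S class. Cluster 12, with *Mmp9* also among its leading genes, had one in 9.94% and 11.3%, at median depths of 1861 and 1788. Cluster 2, led by the macrophage genes *Apoe* and *Ctss* among others, had one in 5.56% and 4.37%, at median depths of 1436 and 1166. The low class lay above these values in both libraries, with median depths of 2164.5 and 1600 UMIs.

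The level also followed the S score in steps. Cells with no UMI of the S list stood at 109 CPM (92.2 to 127) in the WT-labelled library and 133 (111 to 158) in the KO-labelled library. With 2 to 3 such UMIs they stood at 431 and 472 CPM, with 4 to 6 at 942 and 828, and with 7 to 10 at 1159 and 1136. Cells with 11 to 20 stood at 1175 (911 to 1493) and 1202 (985 to 1453), so there was no step beyond the previous one that its interval could show.

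Each of the 6 genes was higher in the S class than in the low class, but by different factors. In the WT-labelled library, *Mcm5* was at 174 CPM in the S class and 15.1 in the low class, 11.5-fold, and *Mcm7* at 238 and 24.04, 9.91-fold. *Mcm6* was at 215 and 52.5 CPM, 4.10-fold, the smallest ratio of the 6 and the highest level in the low class. In the KO-labelled library the ratios lay closer together, from 4.23-fold for *Mcm4* to 5.88-fold for *Mcm5*.

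*Mcm5* and *Mcm7* had the largest ratios of the G2M over the low class in both libraries. *Mcm7* was at 88.9 CPM in the G2M class against 24.04 in the low class in the WT-labelled library, a log2 ratio of 1.89 (1.35 to 2.43), and at 106 against 40.1 in the KO-labelled library, 1.40 (0.93 to 1.89). *Mcm5* was at 57.5 against 15.1 CPM, 1.93 (1.25 to 2.62), and at 54.7 against 25.9, 1.08 (0.45 to 1.73). For *Mcm2*, *Mcm3*, *Mcm4* and *Mcm6* the same log2 ratio ran from 0.26 to 0.36 in the WT-labelled library and from -0.03 to 0.48 in the KO-labelled library, and all 8 intervals held 0. In the WT-labelled library the intervals of *Mcm5* and *Mcm7* lay above those of the other 4 genes. In the KO-labelled library that of *Mcm5* overlapped all 4 and that of *Mcm7* overlapped those of *Mcm2*, *Mcm3* and *Mcm4*, and the difference between members was not tested.

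**Figure D2:**
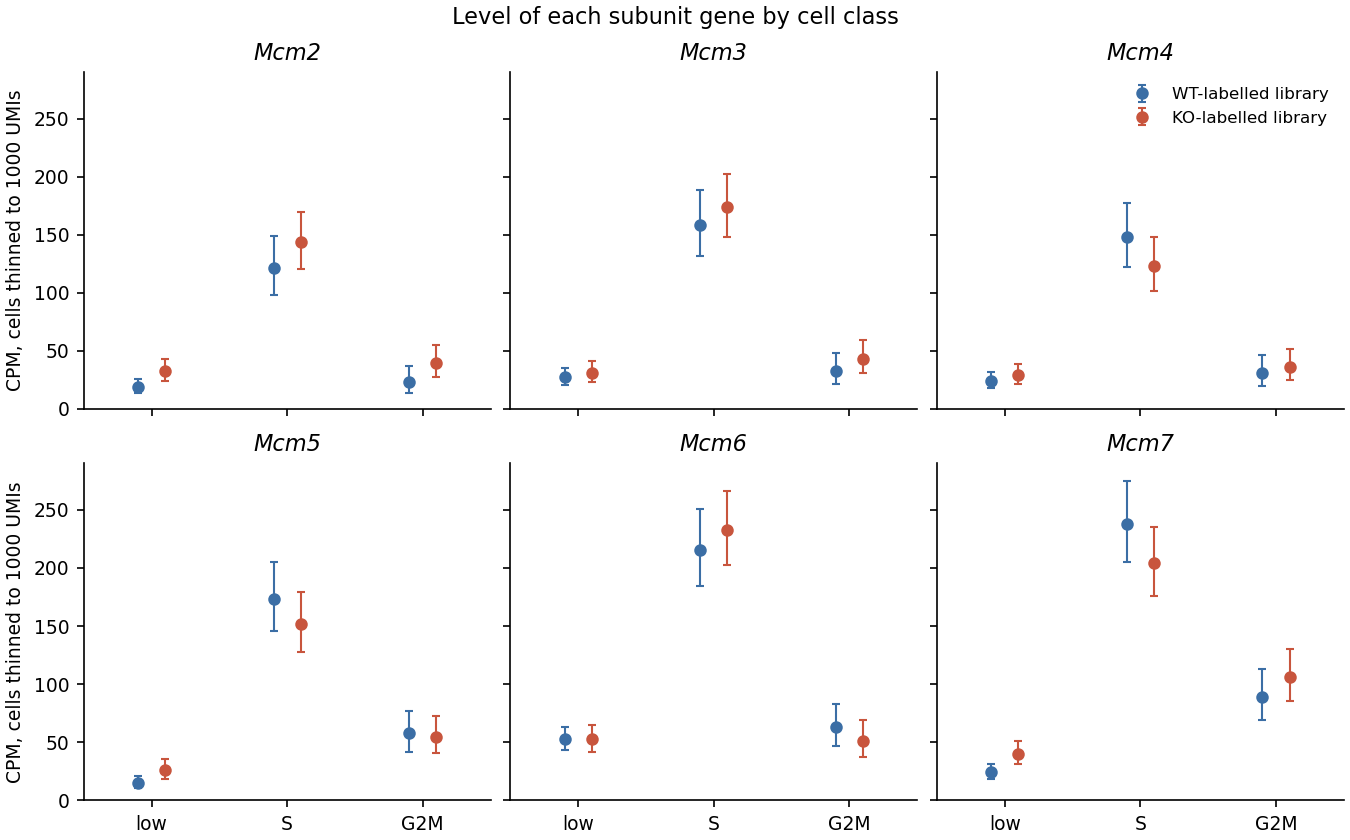
CPM of each subunit gene in thinned cells of the low, S and G2M classes, 1 panel per gene; bars are exact 95% Poisson intervals. Every gene is highest in the S class in both libraries, and *Mcm5* and *Mcm7* remain above the low class in the G2M class.

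A finer order was made after the data had been seen, by dividing the plane of S and G2M scores into sectors of 45 degrees, from sector 1 (S genes above the mean, G2M genes far below it) to sector 6 (the reverse). Genes outside both lists served as landmarks. *Ccne1*, encoding the G1/S cyclin E1, was highest in sectors 2 and 3. *Ccna2*, encoding cyclin A2, was highest in sector 4, and *Ccnb1*, encoding the mitotic cyclin B1, was highest in sector 5, in both libraries. The replication genes *Dut*, *Tk1* and *Lig1*, also outside both lists, were highest in sector 3 in both libraries. There *Dut* had 602 and 691 CPM, *Tk1* 311 and 525, and *Lig1* 150 and 94.1. In sector 2 these genes had 575 and 667, 206 and 306, and 128 and 51.9 CPM. The landmark values carry no interval.

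The 6 subunit genes together were highest in sector 2, at 1284 CPM (1163 to 1415) in the WT-labelled library and 1262 (1149.8 to 1383) in the KO-labelled library. Sector 3 followed with 967 (864 to 1078) and 958 (865 to 1058) CPM, then sector 1 with 733 (596 to 893) and 669 (547 to 810). In sector 4 the sum stood at 466 and 451 CPM and in sector 5 at 235 and 252. The libraries lay within each other's intervals in sectors 1 to 5. In sector 6, which held 141 cells in each library, the sum was 191 CPM (126 to 279) from 27 UMIs against 305 (221 to 411) from 43 UMIs, again with overlapping intervals.

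The order among the 6 shifted along the sectors. In sector 1 *Mcm6* led with 156 and 146 CPM, whereas *Mcm7* had 104 and 108. In sector 4 *Mcm7* led with 125 CPM in the WT-labelled library and 152 in the KO-labelled library, and *Mcm4* had 34.5 and 50.8. In sector 5 *Mcm7* stood at 76.5 and 97.4 CPM and *Mcm5* at 48.5 and 61.8, and *Mcm2* was at 12.8 and 19.0.

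**Figure D3:**
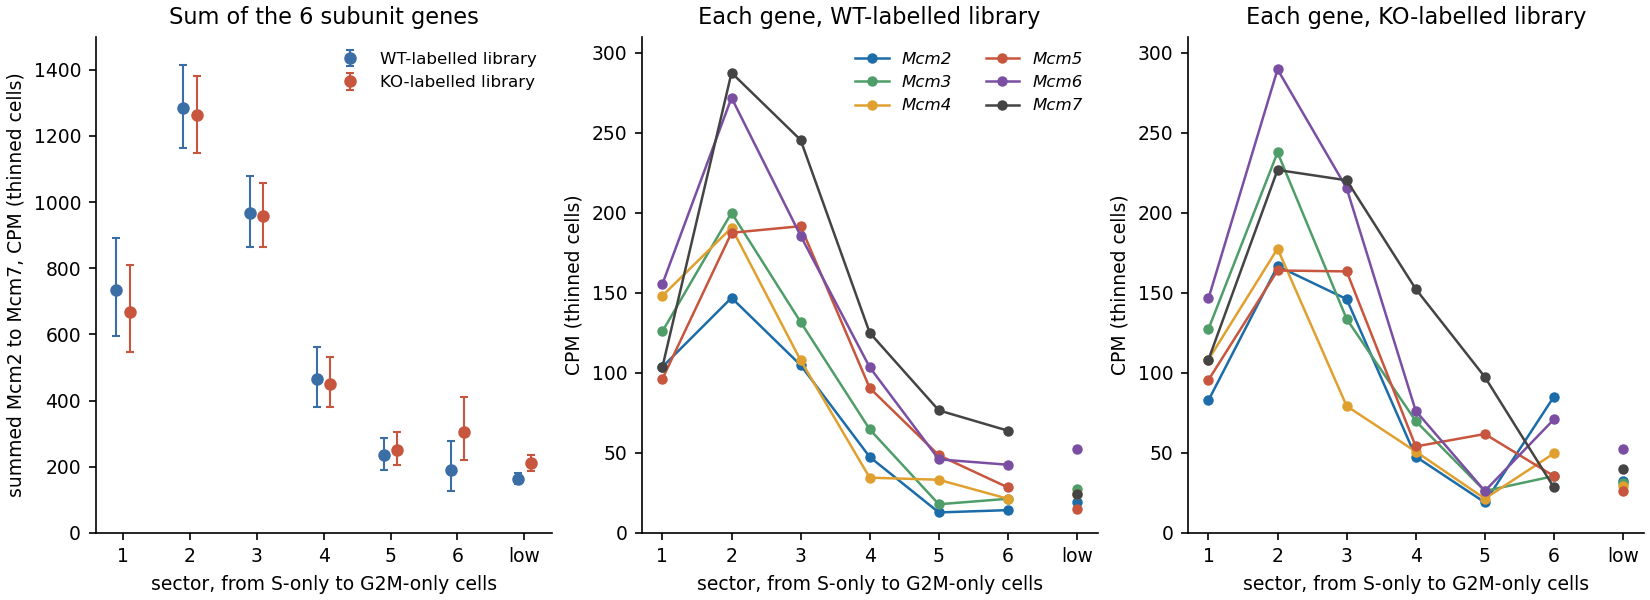
CPM in thinned cells by sector of the S and G2M scores, with low class cells apart on the right. Left, sum of the 6 genes in both libraries with exact 95% Poisson intervals; middle and right, each gene in 1 library. The sum is highest in sector 2 in both libraries, and *Mcm7* is the highest line in sectors 4 and 5.

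The share of cells in each class differed between the libraries. The S class held 789 of 3800 cells (20.8%, 19.5 to 22.1%) in the WT-labelled library and 927 of 3351 cells (27.7%, 26.2 to 29.2%) in the KO-labelled library. Without thinning the shares were 21.2% and 28.2%. The G2M class held 20.1% and 26.2%, and the low class 59.1% and 46.2%. These shares come from scores of transcripts and were not read as rates of division.

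Within the S class the summed members had a log2 ratio between libraries of -0.04 (-0.17 to 0.10), and in the G2M class of 0.16 (-0.09 to 0.42). In the low class it was 0.37 (0.16 to 0.59). Different clusters of cells, described further on, made up that class. Cluster 1 held 6.68% of its cells in the WT-labelled library and 25.1% in the KO-labelled library, cluster 2 held 18.8% and 10.9%, cluster 6 held 18.4% and 9.89%, and cluster 12 held 11.8% and 6.08%. Within the low class the summed members stood at 120 and 186 CPM in cluster 1, 61.5 and 53.3 in cluster 2, 55.6 and 65.4 in cluster 6 and 60.2 and 63.8 in cluster 12. They were also higher in the KO-labelled library in clusters 3 (180 and 268), 4 (604 and 646), 8 (284 and 336), 9 (236 and 316) and 10 (117 and 194). They were lower there in clusters 5 (933 and 556) and 11 (875 and 267), each from few UMIs. Cluster 7 had no low class cell in the WT-labelled library. What part the clusters had in the ratio was not tested. With the 3 classes given equal weight the log2 ratio was 0.05, but 0.18 with an S list of G1 to S genes and 0.18 in cells with 1000 or more genes, and with the class shares of either library, settings added after the data were seen, it was 0.11 (shares of the WT-labelled library) and 0.08 (shares of the KO-labelled library). Over the same thinned cells without regard to class it was 0.32. The values by class rest on ranges that were cut from a score.

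By gene, the S class showed no common direction between libraries. *Mcm2*, *Mcm3* and *Mcm6* had log2 ratios of 0.24, 0.13 and 0.11 there, and *Mcm4*, *Mcm5* and *Mcm7* of -0.27, -0.19 and -0.23, and all 6 intervals held 0. In the low class *Mcm2* at 0.75 (0.14 to 1.38), *Mcm5* at 0.77 (0.08 to 1.48) and *Mcm7* at 0.74 (0.19 to 1.29) had intervals above 0. *Mcm6* was at -0.01 (-0.43 to 0.42) in that class, with 52.5 and 52.4 CPM.

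Depth moved with both the level and the class. In cells with 1000 to under 2000 UMIs the 6 genes stood at 127 CPM (111 to 144) in the WT-labelled library and 367 (345 to 391) in the KO-labelled library, a log2 ratio of 1.53 (1.32 to 1.75). From 2000 to under 4000 UMIs the levels were 395 (378 to 413) and 566 (541 to 591), log2 0.52 (0.43 to 0.61), and from 4000 UMIs up they were 671 (648 to 695) and 813 (769 to 858), log2 0.28 (0.18 to 0.37). The share of S class cells moved alongside, at 7.19% and 20.7%, 21.4% and 32.8%, and 37.8% and 46.6% in the same order. The pooled ratio was smaller than the ratio within each range. The lowest range held 52.4% of thinned cells in the KO-labelled library and 31.1% in the WT-labelled library. In 2766 cells per library matched on total UMIs the log2 ratio of the sum was 0.63. What part depth had in the difference between libraries was not tested.

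**Figure D4:**
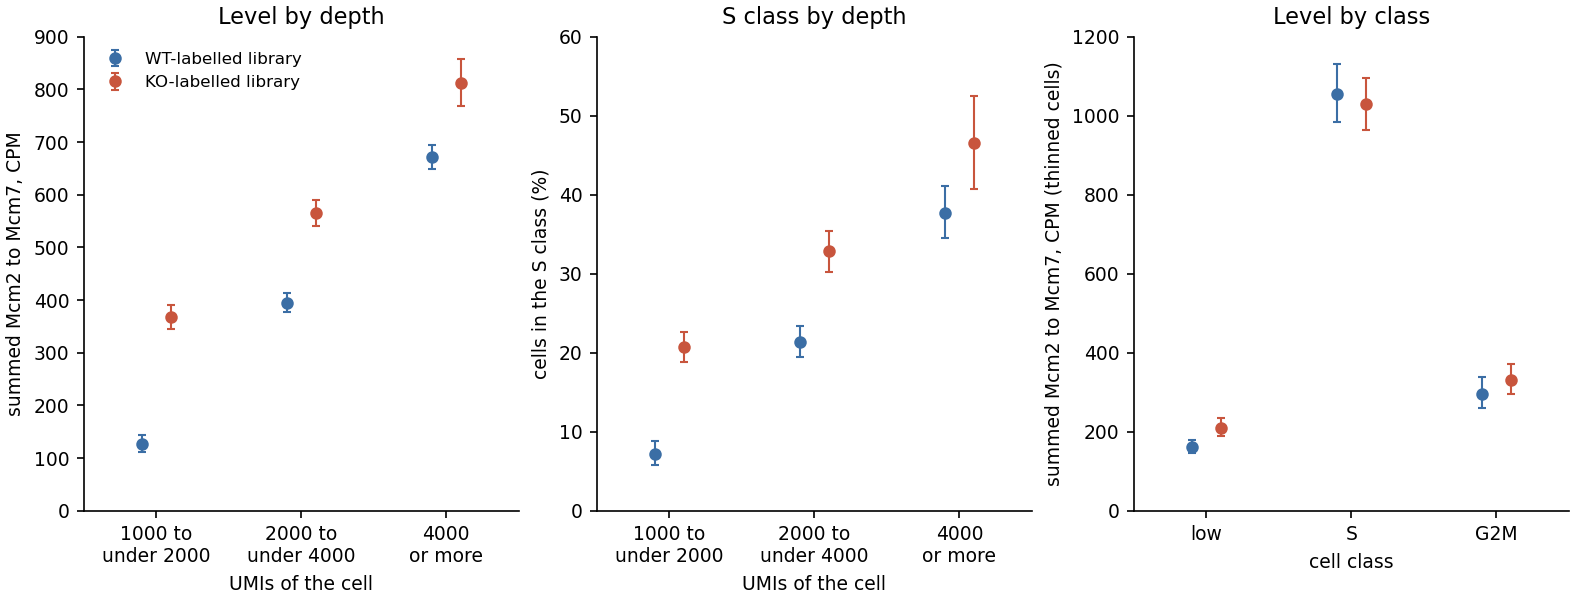
Left, CPM of the 6 genes together by UMIs of the cell; middle, share of cells in the S class by UMIs of the cell; right, CPM of the 6 genes by class in thinned cells; bars are exact 95% intervals. At each depth the KO-labelled library is higher in both measures. The WT-labelled and KO-labelled libraries stand at 1056 and 1029 CPM in the S class, 297 and 332 in the G2M class and 163 and 211 in the low class.

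The balance of the 6 genes was compared as the share of each in their summed UMIs. Of all MCM UMIs, *Mcm6* made up 23.5% (22.3 to 24.6%) in the WT-labelled library and 22.0% (20.8 to 23.3%) in the KO-labelled library, and *Mcm7* 21.2% (20.1 to 22.3%) and 23.2% (21.9 to 24.5%). *Mcm3* made up 15.4% and 15.1%, *Mcm5* 14.5% and 13.6%, *Mcm2* 13.02% and 14.2%, and *Mcm4* 12.4% and 11.9%. The intervals of every gene overlapped between libraries. The summed absolute difference of the 6 shares, divided by 2, was 3.08 percentage points over all kept cells. Within classes of thinned cells, which held far fewer UMIs, it was 6.52 points in the S class, 8.57 in the G2M class and 10.7 in the low class.

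The balance also differed between classes of the same library. *Mcm7* took 14.8% of MCM UMIs in the low class (11.3 to 18.9%), 22.6% in the S class (19.8 to 25.6%) and 29.96% in the G2M class (24.1 to 36.4%) of the WT-labelled library. In the KO-labelled library it took 19.0% (14.9 to 23.7%), 19.8% (17.3 to 22.5%) and 32.0% (26.6 to 37.7%). *Mcm6* went the other way in the WT-labelled library, with 32.3% in the low class (27.6 to 37.4%) and 20.4% in the S class (17.7 to 23.3%), while in the KO-labelled library it had 24.8% and 22.6%. The distance between the S and the G2M class was 11.1 percentage points in the WT-labelled library and 13.9 in the KO-labelled library. Between the S and the low class it was 14.9 and 5.46, the latter smaller than the distances between libraries within a class.

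Subunit transcripts were seldom detected together at this depth. In thinned S class cells 25.9% in the WT-labelled library and 22.4% in the KO-labelled library held a UMI of 2 or more members. The product of the 6 shares of detection, as if members were detected independently, gave 23.8% and 20.9%. Over all thinned cells 7.66% and 8.53% held 2 or more, where that product gave 4.12% and 5.76%. In the S class 7.48% and 6.04% held 3 or more. No S class cell held all 6, and the most seen in 1 cell was 5, in a single cell of the WT-labelled library. Over all thinned cells, correlations of counts between the 15 pairs of members ran from 0.02 (*Mcm3* with *Mcm4*) to 0.17 (*Mcm6* with *Mcm7*) over 3800 cells in the WT-labelled library, with a median of 0.09, and from 0.03 to 0.12 over 3351 cells in the KO-labelled library, with a median of 0.07. The median over all pairs of robust genes was 0.00 in each library. In counts this sparse, correlations of that size describe shared detection only.

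The cells were also divided into 12 clusters. The 6 members, the S and G2M lists and the licensing, activation and fork genes given below were left out of the clustering. E2F and cyclin genes and unlisted cell cycle genes such as *Spc25* were not left out, so the clusters could follow the cell cycle. In clusters 5, 7 and 11 the G2M class held 52.8%, 66.1% and 45.6% of cells in the WT-labelled library. The shares in the KO-labelled library were 53.4%, 60.1% and 52.4%. The summed level ran from 58.7 CPM in cluster 2 to 857 CPM in cluster 4 in the WT-labelled library and from 50.9 to 1032 CPM between the same clusters in the KO-labelled library. Cluster 4 had *Srm*, *C1qbp*, *Dkc1* and *Irf8* among its leading genes, and 49.0% and 54.4% of its cells were in the S class. Cluster 5, led by mitotic genes such as *Ube2c* and *Cdk1*, stood at 677 and 665 CPM. Cluster 8, primary-granule progenitor-like (led by *Mpo*, *Elane* and *Ctsg*), stood at 549 and 565 CPM. Clusters 6 and 12, secondary-granule granulocyte-like, stood at 82.2 and 122 CPM and at 161 and 174 CPM.

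The difference between libraries was not alike in all clusters. The sum was higher in the KO-labelled library in 9 of 12 clusters, with an interval above 0 in 4 of them. The largest log2 ratio was in cluster 1, 1.005 (0.57 to 1.46), from 53 and 224 UMIs, in which *Mcm6* had 47.8 and 92.0 CPM and *Mcm7* 18.6 and 56.7. Clusters 10 (0.52, 0.20 to 0.85), 3 (0.40, 0.15 to 0.65) and 4 (0.27, 0.16 to 0.37) followed. Cluster 11, led by *Stfa1* and *Camp*, was lower in the KO-labelled library, -0.32 (-0.56 to -0.09), with *Mcm6* at 142 and 72.7 CPM. In cluster 1 the S class held 8.33% and 12.9% of cells, and in cluster 11 42.0% and 35.7%. With every cluster given equal weight, a setting added after the data were seen, the log2 ratio of the sum was 0.17.

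**Figure D5:**
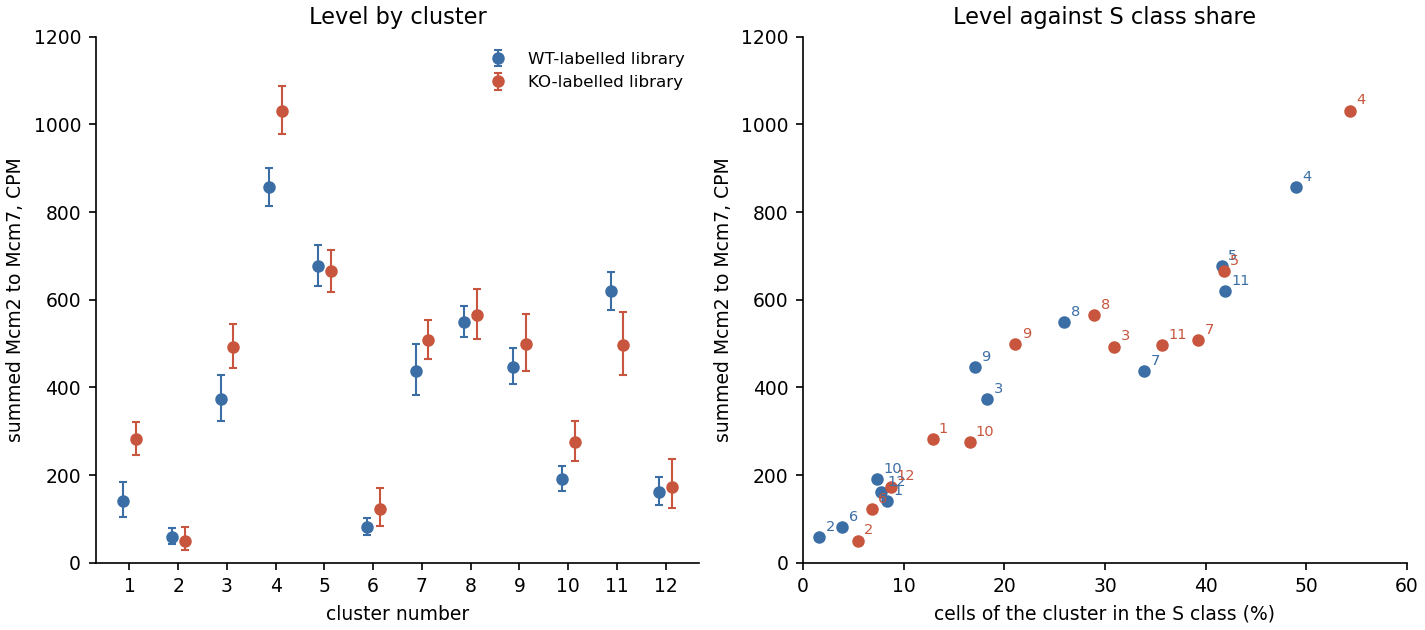
Left, CPM of the 6 genes together in each cluster and library with exact 95% Poisson intervals; right, the same CPM against the share of the cluster's cells in the S class, 1 point per cluster and library, numbered by cluster. Levels run from 50.9 to 1032 CPM, and clusters with more S class cells tend to have higher levels in both libraries.

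Over the 24 points of clusters and libraries, each member followed the sum of the other 5 with a Pearson r of 0.89 (*Mcm4*) to 0.96 (*Mcm2*), on log2 of CPM + 10. These points share libraries, depth and total UMIs. Of the robust genes outside the 6, those most like the summed members were *Tipin* (r = 0.96), a fork protection factor that was also in the S list, *Ssrp1* (0.96), a subunit of the histone chaperone FACT, and *Dtymk* (0.95) and *Dut* (0.95), enzymes that supply and clean the thymidine nucleotide pool. The next were *Hnrnpa2b1*, *Anp32b*, *Syce2*, *Minos1*, *Stmn1* and *Nudt5*, with r from 0.94 to 0.92. The median r over robust genes was 0.22.

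Variability between cells, measured in thinned cells as the CV (the standard deviation divided by the mean), ran from 3.53 (*Mcm6*) to 5.36 (*Mcm2*) in the WT-labelled library and from 3.45 (*Mcm7*) to 4.87 (*Mcm4*) in the KO-labelled library. The log2 ratio of CV between libraries was lowest for *Mcm2*, -0.35, and highest for *Mcm4*, 0.08, with a median of -0.08 over the 6 genes and 0.02 over robust genes. At each cell's own depth the median was 0.11 for the members and 0.21 for robust genes, so its sign depended on depth. The CV of thinned counts depends on the mean, which was higher for all 6 members in the KO-labelled library. The Fano factor (variance over mean) of thinned counts was higher there for *Mcm4* (1.10 and 1.35), *Mcm6* (1.10 and 1.35), *Mcm5* (1.06 and 1.24) and *Mcm7* (1.18 and 1.22) and lower for *Mcm2* (1.19 and 1.15) and *Mcm3* (1.12 and 1.10), with a median over robust genes of 1.17 and 1.27.

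The other genes of licensing were not uniformly higher. Genes of each list were counted where they had 50 or more UMIs in each library, and of the 7183 genes of the files that did, 5.46% passed 1.5-fold as higher and 6.71% as lower. Of 9 such licensing genes (10 listed) 1 passed 1.5-fold as higher, *Orc6*, encoding a subunit of the origin recognition complex, with 71.0 CPM in the WT-labelled library and 112 in the KO-labelled library (log2 0.65, 0.52 to 0.79), and none passed it as lower. The loading factor *Cdt1* had 24.8 and 34.5 CPM (0.48, 0.23 to 0.72), and *Gmnn*, encoding its inhibitor geminin, 144.8 and 167 CPM (0.21, 0.10 to 0.31). The summed list had a log2 ratio of 0.21 (0.15 to 0.27), while its median over genes was 0.01.

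Of 12 activation genes (14 listed) 1 passed 1.5-fold as higher, *Gins1* of the GINS complex, with 39.8 and 61.5 CPM (0.63, 0.44 to 0.81), and none as lower. *Wdhd1*, which links the helicase to the polymerase, had 10.2 and 14.8 CPM, and the checkpoint adaptor *Clspn* had 14.1 and 9.60 CPM (-0.55, -0.96 to -0.15). Of 24 fork genes (25 listed) 2 passed as higher and 1 as lower, and *Pole*, below the limit with 92 and 38 UMIs, was also past it as lower. *Tk1*, thymidine kinase, had 115 and 195 CPM, *Rpa2*, a subunit of the single-strand binding complex, 64.8 and 101 CPM, and *Rfc1*, the large clamp loader subunit, 43.4 and 18.8 CPM (-1.21, -1.48 to -0.94). The sums of both lists were higher in the KO-labelled library, by 0.30 and 0.32 on the log2 scale. The median over genes was 0.10 for activation, with 7 genes higher and 5 lower. For fork genes it was 0.32, with 19 higher and 5 lower. *Tipin*, at log2 0.47, gave 2210 of the 5474 and 2084 of the 4562 activation UMIs.

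Among 15 E2F, cyclin and pocket protein genes (18 listed) 3 passed 1.5-fold as higher, *Ccnd2* (9.60 and 18.4 CPM), *Rbl1* (20.1 and 38.3 CPM) and *Ccnd1* (5.06 and 7.70 CPM), and none as lower. *E2f7*, below the limit with 42 and 44 UMIs, was past it as higher too. Of 37 S genes (39 listed) 3 were past 1.5-fold as higher and 1 as lower, with *Casp8ap2* (20.7 and 9.47 CPM), *Chaf1b* (23.99 and 40.0) and *Exo1* (5.48 and 8.59) the most apart among these 37. *Atad2* (185 and 47 UMIs) and *Wdr76* (101 and 37 UMIs) were below the limit of 50 UMIs and were past 1.5-fold as lower. These genes and *Pole* and *E2f7* were named after their values were seen. Of 48 G2M genes (51 listed) 3 were higher and 8 lower, led by *Mki67* (35.1 and 13.6 CPM), *Ckap5* (21.3 and 9.47) and *Cenpf* (39.7 and 18.3). The other MCM family genes were rare, with 40 and 22 UMIs for *Mcm8*, 50 and 44 for *Mcm9* and 62 and 44 for *Mcm10*, and none of their intervals left 0 out.

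Markers of other blood cells moved with the libraries as well. The 4 erythroid markers summed to 83.6 CPM in the WT-labelled library and 225 in the KO-labelled library, and the 3 megakaryocyte markers to 17.1 and 117 CPM, with none at 0. The 4 B cell markers summed to 54.3 and 78.9 CPM, and the 4 basophil, mast cell or eosinophil markers to 150.2 and 213 CPM, with 1 gene of each list at 0 in both libraries. The monocyte or macrophage, stem or progenitor, secondary-granule and primary-granule lists had log2 ratios of summed UMIs of -0.06, -0.06, -0.04 and -0.17, sums that a few abundant genes carry. Single markers lay further apart. On the secondary-granule list *Mmp9* (-1.25), *Mmp8* (-1.16), *Lcn2* (-0.84) and *Cxcr2* (-2.27, from 64 and 9 UMIs) had the lowest ratios. *Ngp* (0.24), *Ltf* (0.17) and *Cd177* (0.14) of that list were higher in the KO-labelled library, and its other genes were lower. Among stem or progenitor markers *Cd34* (1.25) and *Gata2* (1.43) stood against *Hoxa9* (-0.58). The part of these markers in the difference of the subunit genes was not tested.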

How the data were processed

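Both libraries were 10x Genomics 3′ libraries. The authors ran Cell Ranger (version 1.3.1 per the submitters' processing notes, where the study's methods name another) on build mm10 and deposited 1 matrix of raw UMI counts for called cells. The annotation used is not given in the sources used here. The members and gene lists were chosen with earlier results of these data known.

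Cells with 500 or more genes were kept, and none was removed as a doublet, though the 5% of cells with most UMIs were left out as an alternative. Counts were summed per library and scaled to CPM. Classes, shares of cells and CV came from cells thinned to 1000 UMIs without replacement (seed 20). Clusters came from k-means (12 clusters, 10 starts, 20 principal components of ln(1 + count per 10000), 784 variable genes) in scikit-learn 1.9.0; a cluster was named only where listed markers led it. Likeness used CPM + 10. All members were named, with up to 3 genes per list of largest ratio with 50 or more UMIs in each library, the 10 genes most like the members, and *Kat2a*. Landmarks, clusters in the text and neighbours were chosen after values were seen. Ratio, thinning and class steps were tested on simulated data. Intervals used scipy 1.17.1 under Python 3.11.15.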

Additional observations from a re-analysis of the deposited data

Results flagged for a closer look

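Subunit transcripts were also found in the cells that the comparisons left out, those with fewer than 500 detected genes. The 203 cells below that limit in the WT-labelled library held 10 UMIs of the 6 genes, or 44.8 CPM (21.5 to 82.4), and the 695 in the KO-labelled library held 62 UMIs, or 93.2 CPM (71.5 to 119). A count of 0 would allow up to 13.4 and 4.51 CPM, the level of 3 UMIs, so any larger sum lies above it. Whether these UMIs came from the captured cells themselves was not tested. *Mcm6* gave 26 of the 62 UMIs in the KO-labelled library and 5 of the 10 in the WT-labelled library, where *Mcm2*, *Mcm3* and *Mcm7* had none.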

How the results depend on the processing

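The sum of the 6 genes was higher in the KO-labelled library under all 9 alternatives, as was each single member. Its log2 ratio of 0.22 became 0.15 with every deposited cell, 0.29 in cells with 1000 or more genes, 0.32 and 0.39 after thinning to 1000 and 1500 UMIs, 0.63 in cells matched on total UMIs, 0.14 with a size factor in place of total UMIs and 0.32 with every cell given equal weight. Settings of depth, matching and weighting of cells each moved it, and the cause was not tested. No member passed 1.5-fold as given above, 1 did with thinning to either depth and 4 did in matched cells.

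The share of S class cells (20.8% and 27.7%) became 23.5% and 33.6% with thinning to 1500 UMIs, 16.7% and 22.8% with a class limit of 0.5, 32.2% and 37.2% with 16 genes of the G1 to S transition, and 29.2% and 36.7% in cells with 1000 or more genes. The log2 ratio of the S over the low class became 2.51 and 2.02 with the limit of 0.5, 2.03 and 1.95 with the G1 to S genes, 2.02 and 1.34 in cells with 1000 or more genes, and 2.01 in the KO-labelled library with 1500 UMIs. The ratio at equal class weights, 0.05, became 0.18 with the G1 to S genes and 0.18 in cells with 1000 or more genes. The balance of the members stayed between 3.02 and 4.48 percentage points. The median log2 ratio of CV, -0.08, was reversed to 0.11 at each cell's own depth and became -0.15 with 1500 UMIs. The causes were not tested. Of 54 further values of single members, 13 moved outside their counting interval and 0 changed sign. No paired analysis was possible because each genotype had a single library.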
